A study of Mus musculus with 49 samples.

Results

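Mouse embryonic stem cells were exposed to the antidepressant fluoxetine while they turned into neural cells, and their RNA was compared after 4 days of exposure with that of cultures of the same age that received no drug. The comparison rests on 14 of the 49 libraries of the study: 7 of fluoxetine cultures and 7 of control cultures, all taken on day 7 of differentiation. All cultures were of the ES-D3 line, an established mouse embryonic stem cell line, and had formed embryoid bodies for 3 days before the drug was added at 2 µM from day 3 to day 7. The controls are labelled control with no further detail, and the labels do not name a solvent. The labels speak of 8 samples per condition, of which 7 per group are analysed here. Whether the 7 samples of a group were separate differentiations is not stated either, and p-values therefore measure the spread between these samples, which may be technical. Venlafaxine cultures of the same day (90 µM, 7 libraries) and fluoxetine and control cultures of day 13 (7 libraries each, exposed from day 3) are used for reference.

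Fluoxetine is a selective serotonin reuptake inhibitor. Its target is the serotonin transporter, encoded by Slc6a4. It is also a cationic amphiphilic drug, a weak base with a lipophilic body, and such compounds accumulate in the acidic interior of lysosomes. Lysosomes break down proteins, lipids and glycans with acid hydrolases. Their acidity is kept by the vacuolar proton pump (V-ATPase), and their genes are switched on together by the MiT/TFE transcription factors, which bind promoter elements built around the letters CACGTG. Cholesterol taken up from outside leaves the cell's endosomes through the lysosome, and a separate set of endoplasmic reticulum proteins measures sterol and sets cholesterol synthesis.

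The 14 libraries held 14059811 to 25752193 counts of reads assigned to genes. Neural progenitor markers were present in every library: Sox1 was at 57.1 to 65.5 CPM (a gene's count scaled to library size with TMM factors) in controls and 50.6 to 62.9 with fluoxetine. Nes, which encodes the progenitor filament nestin, was at 623 to 702 and 515 to 666 CPM. The young neuron gene Tubb3 was at 422 to 550 and 385 to 610 CPM. Stem cell genes were still detectable, with Pou5f1 at 4.47 to 13.1 CPM in controls and 6.18 to 14.7 with fluoxetine, against a mean of 1403 CPM on day 0 on a scale common to the 49 libraries. The mature astrocyte gene Gfap was at or below 0.0975 CPM. The myelin gene Mog had no count, which allows a level of up to 0.117 to 0.213 CPM per library, by counting error only. Endoderm, endothelial and epithelial markers were also present (Gata4 at 124 to 191 CPM, Cdh5 at 19.4 to 50.9 and Cdh1 at 156 to 277 over the 14 libraries), so these were mixed cultures.

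Which genes differed was asked with 15601 genes that had enough counts to test. Few genes passed the adjusted test, and their changes were small. Of the 15601 genes tested, 8 (0.0513%) passed an adjusted p under 0.05 in edgeR's quasi-likelihood test with Benjamini-Hochberg adjustment. They were 5 higher (0.032%) and 3 lower (0.0192%), and none of the 8 changed by as much as 1.5-fold. The median log2 fold change over all genes was 0.0024, with 5% of genes below -0.18 and 5% above 0.25. For 13790 genes (88.4%) the 95% interval of the fold change lay within 1.5-fold in either direction. Among 10277 genes with at least 10 CPM in the higher group this held for 10160 (98.9%). At an unadjusted p under 0.05 there were 1424 genes (9.13%), 680 higher (4.36%) and 744 lower (4.77%). About 5% in all would be expected if no gene differed, though genes are not independent of each other.

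**Figure D1:**
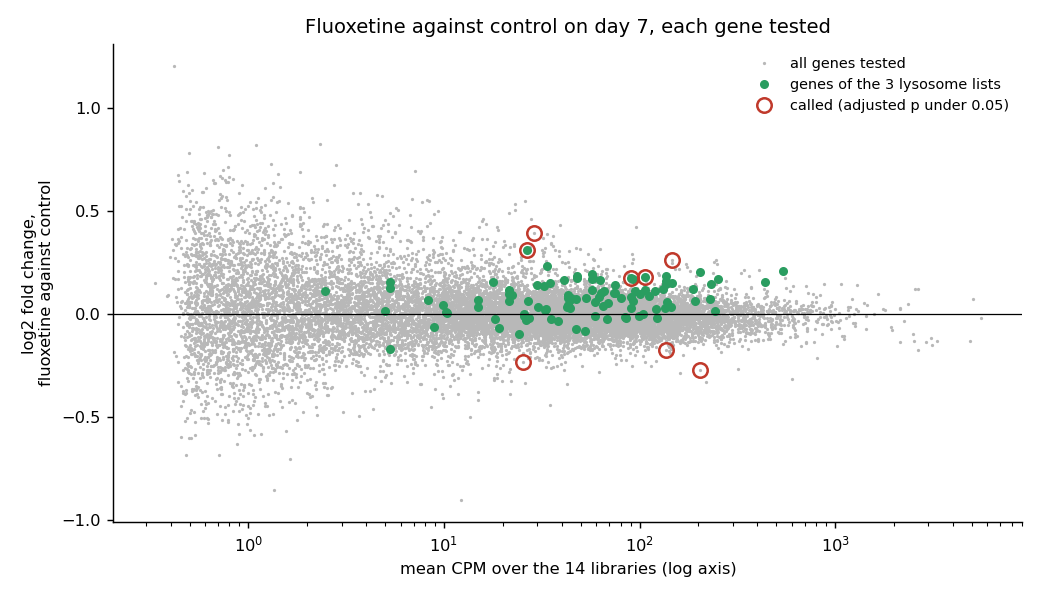
Log2 fold change of fluoxetine against control on day 7 for each of the 15601 genes tested, against the mean CPM over the 14 libraries on a log axis. Grey dots are all genes, green dots the 100 genes of the 3 lysosome lists and red rings the 8 called genes. The spread narrows with level, and 81 of the 100 green dots lie above 0.

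Of the 8 called genes, 3 encode lysosomal proteins, and all 3 were higher with fluoxetine. Dpp7 (ENSMUSG00000026958.13, chromosome 2, 25352276 to 25356359, minus strand; GRCm38) encodes a dipeptidyl peptidase of the lysosome. It was at 20.4, 24 and 25.4 CPM (lowest, median and highest of 7 controls) and at 27.4, 29.1 and 31.5 CPM with fluoxetine, so the groups did not overlap. The log2 fold change was 0.31 ± 0.051 (SE, n = 7 per group, adjusted p = 0.0121, edgeR). Mfsd1 (ENSMUSG00000027775.9, chromosome 3, 67582741 to 67604237, plus strand), which encodes a transporter of the lysosomal membrane, was at 96.6, 99.2 and 102 CPM in controls and 106, 113 and 116 CPM with fluoxetine. Its log2 fold change was 0.18 ± 0.031 (adjusted p = 0.0161), again without overlap. Atp6ap2 (ENSMUSG00000031007.2, chromosome X, 12587801 to 12617049, plus strand) encodes an accessory subunit of the V-ATPase. Its levels were 83.1, 84.3 and 88.5 CPM in controls and 92.1, 97 and 98.7 CPM with fluoxetine (0.18 ± 0.032, adjusted p = 0.0227), with every fluoxetine library above every control.

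Because MiT/TFE factors act through CACGTG, the promoter windows of these 3 genes are shown, taken from RefSeq on GRCm38.p6 and running from 250 bases before to 50 bases after the transcription start, on the strand of the gene. Capitals mark each CACGTG, a palindrome that reads the same on both strands. The Mfsd1 window (chr3:67582518-67582817, plus strand) held 5 of them, the Dpp7 window (chr2:25356283-25356582, minus strand) held 1, and the Atp6ap2 window (chrX:12587509-12587808, plus strand) held 0.
Mfsd1: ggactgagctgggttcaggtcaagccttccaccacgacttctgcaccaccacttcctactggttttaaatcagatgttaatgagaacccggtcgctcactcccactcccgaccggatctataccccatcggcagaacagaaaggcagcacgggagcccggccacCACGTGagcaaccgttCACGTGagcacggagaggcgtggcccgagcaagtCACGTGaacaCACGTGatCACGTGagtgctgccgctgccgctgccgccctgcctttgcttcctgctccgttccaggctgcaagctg
Dpp7: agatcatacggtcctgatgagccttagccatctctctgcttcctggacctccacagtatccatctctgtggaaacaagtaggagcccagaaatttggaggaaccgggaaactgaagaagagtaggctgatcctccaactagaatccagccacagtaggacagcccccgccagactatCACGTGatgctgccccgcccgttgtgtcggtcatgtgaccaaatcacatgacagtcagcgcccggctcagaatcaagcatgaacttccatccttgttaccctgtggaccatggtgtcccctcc
Atp6ap2: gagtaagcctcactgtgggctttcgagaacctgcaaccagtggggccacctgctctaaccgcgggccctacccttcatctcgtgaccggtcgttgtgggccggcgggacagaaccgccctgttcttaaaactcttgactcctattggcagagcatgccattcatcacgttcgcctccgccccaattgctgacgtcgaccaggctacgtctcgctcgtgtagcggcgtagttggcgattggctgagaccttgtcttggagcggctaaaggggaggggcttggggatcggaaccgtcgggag

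The 5 matches in Mfsd1 begin at positions -86, -70, -36, -26 and -18 from the start, and the match in Dpp7 begins at -73. Of the 15601 genes tested, 11173 had a promoter window in the RefSeq table, and Mfsd1 was the only one of these with 5 or more matches. At least 1 CACGTG stood in the windows of 1292 of the 11173 genes (11.6%) and in 2349 of all 32851 windows (7.15%). A gene with several windows was scored by its fullest window, so shares of genes compare with the 11.6%. A match stood in 12 of 36 lysosomal enzyme genes with a window (33.3%). It stood in 6 of 27 lysosomal membrane genes (22.2%) and 5 of 16 V-ATPase genes (31.2%). Of the 8 called genes 6 had a window, and the lowered genes Rnf145 (at -230, in 1 of its 3 windows) and Snn (at -84) held 1 match each, as Dpp7 did, while Klf8 held 0. Longer strings built around CACGTG were also searched. With a T before it on either strand, it stood in 27.8%, 22.2% and 31.2% of the 3 lists, against 6.82% of genes tested. A longer palindrome around it stood in 0 of 36, 1 of 27 and 0 of 16 genes, against 0.761% of genes tested. Of the 6 called genes with a window, 3 held the T form and 0 the palindrome. The palindrome was too rare for these shares to be compared. A match is a string of letters and not a measured binding site, and which factor binds it, MiT/TFE or another, was not tested.

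**Figure D2:**
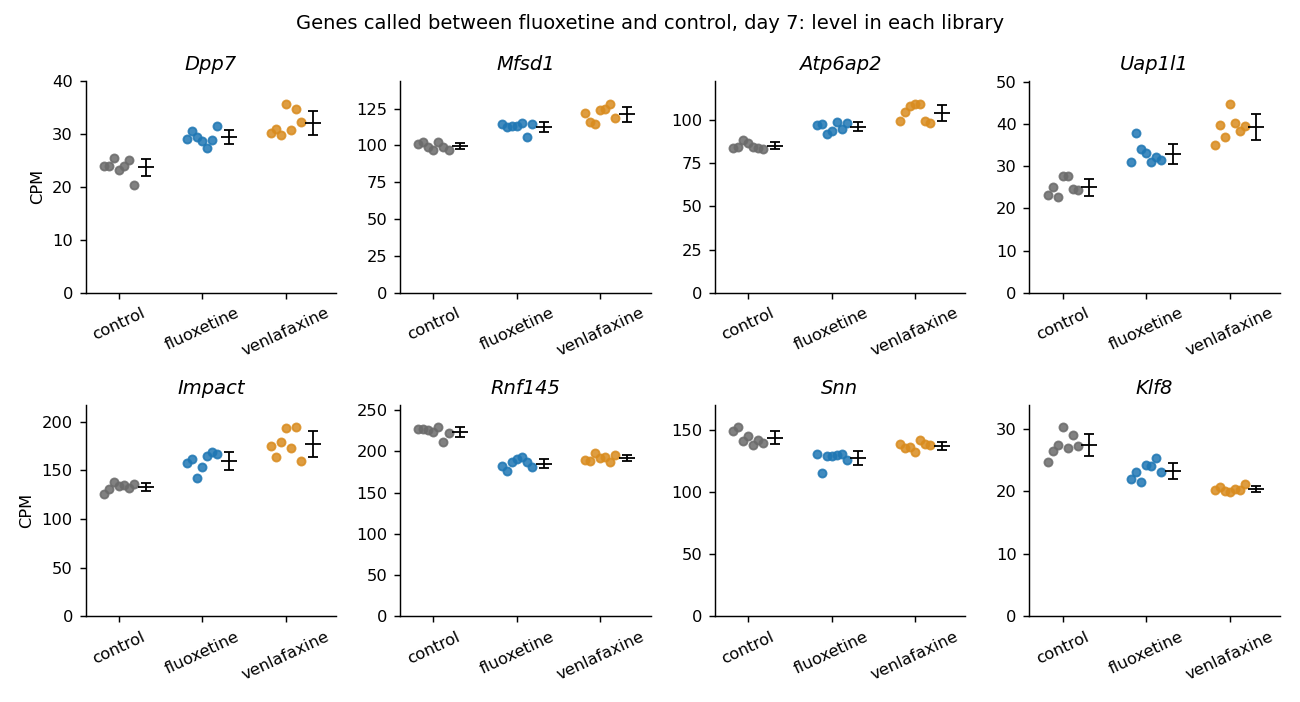
CPM of the 8 called genes in each day 7 library (control grey, fluoxetine blue, venlafaxine orange; 7 libraries each), with the group mean ± SD in black beside the points; axes start at 0. For all genes but Klf8, the 7 fluoxetine libraries lie wholly above or wholly below the 7 controls.

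Uap1l1, the fourth gene that was higher and the one with the largest fold change of the 8, encodes a protein similar to UDP-N-acetylglucosamine pyrophosphorylase. It was at 22.7, 24.6 and 27.8 CPM in controls and 31, 32.2 and 37.8 CPM with fluoxetine, without overlap (0.39 ± 0.058, adjusted p = 0.00304, edgeR). Uap1l1 and Dpp7 are neighbours on chromosome 2 of GRCm38, on the minus strand, with Uap1l1 (ENSMUSG00000026956.15) at 25359889 to 25365682 and 3529 bases between them. The genes on either side had estimates near 0: Man1b1 at -0.02 ± 0.027 and Sapcd2 at 0.01 ± 0.046, the latter with a sign that changed between alternatives.

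Impact encodes a protein that restrains GCN2, the kinase that senses amino acid shortage and opens the integrated stress response. It was at 125, 134 and 138 CPM in controls and 142, 162 and 169 CPM with fluoxetine, without overlap (0.26 ± 0.044, adjusted p = 0.0126, edgeR). Of the 27 tested genes of the integrated stress response, Impact was the only one called. The median of this list was 0.036, and 0.018 without control replicate 2, 0.023 without fluoxetine replicate 5 and 0.064 without control replicate 5, with the effector gene Atf4 at 0.07 ± 0.042 and Ddit3 at 0.10 ± 0.069. At an unadjusted p under 0.05, 2 were higher (Impact and Cebpb) and 1 was lower (Gcn1l1, which encodes the partner of GCN2, at -0.09 ± 0.039).

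Rnf145 (ENSMUSG00000019189.13, chromosome 11, 44518964 to 44565520, plus strand), which encodes a ubiquitin ligase of the endoplasmic reticulum that takes part in sterol control, fell, and had the smallest p of all genes. It was at 211, 226 and 229 CPM in controls and 176, 187 and 194 CPM with fluoxetine, so the highest fluoxetine library lay below the lowest control. The log2 fold change was -0.27 ± 0.028, a fall to 0.828 of the control mean (adjusted p = 8.76e-06, edgeR). It was the only gene called under every alternative analysis.

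Snn and Klf8 were the other genes called lower. Snn (ENSMUSG00000037972.6, chromosome 16, 11066298 to 11074983, plus strand) encodes stannin, a small membrane protein known from the toxicity of organotin compounds. It was at 139, 142 and 152 CPM in controls and 115, 130 and 131 CPM with fluoxetine, without overlap (-0.18 ± 0.032, adjusted p = 0.0227, edgeR). Klf8 (ENSMUSG00000041649.13, chromosome X, 153237466 to 153396132, plus strand) encodes a Krüppel-like transcription factor. Its levels were 24.7, 27.3 and 30.2 CPM in controls and 21.6, 23.1 and 25.3 CPM with fluoxetine (-0.24 ± 0.045, adjusted p = 0.0406), and the highest fluoxetine library overlapped the lowest control.

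The number of calls depended on the method and on single libraries. DESeq2 called 53 genes and voom with limma 13, and each included the 8. Leaving out 1 library at a time gave 2 calls (without fluoxetine replicate 8) to 15 (without control replicate 6). Uap1l1 kept its call in every such fit. Dpp7 and Impact lost theirs only without fluoxetine replicate 8 (adjusted p = 0.0528 for each), Mfsd1 in 3 of the 14 fits, Snn in 4, Atp6ap2 in 5 and Klf8 in 10. Without control replicate 2, 5 or 8 there were 5 calls each. Mfsd1, Atp6ap2, Snn and Klf8 were also lost without the count filter and without 3 libraries that an earlier analysis had set apart (5 calls). With all 49 libraries in the fit (18 calls) Uap1l1, Mfsd1 and Atp6ap2 were lost, and with the 2 groups alone (14 calls) Snn and Klf8.

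Genes just short of the threshold again included lysosomal ones. Of the next 5 named genes, each with an adjusted p of 0.0574 in edgeR, 3 act at the lysosome. Atp6ap1, another accessory subunit gene of the V-ATPase, was at 124, 128 and 135 CPM in controls and 138, 142 and 151 CPM with fluoxetine (0.14 ± 0.029). Ctns, which encodes the lysosomal cystine exporter cystinosin, was at 0.17 ± 0.034. Fnip1, whose product works with folliculin in nutrient signalling at the lysosome surface, was at 0.21 ± 0.044. Groups did not overlap for Atp6ap1 and overlapped for Ctns and Fnip1.

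Frzb and Hes3 shared this adjusted p, and 3110035E14Rik and Neurod4 came next. Frzb, which encodes a secreted Wnt antagonist, was at 22.2, 23.5 and 28.8 CPM in controls and 14.1, 19.4 and 21.6 CPM with fluoxetine (-0.39 ± 0.078, adjusted p = 0.0574), without overlap. Hes3, a repressor gene of the Notch pathway in progenitors, had an estimate of -0.71 ± 0.14 at 1.71 to 2.5 CPM in controls and 0.945 to 1.82 with fluoxetine. Neurod4, which encodes a proneural transcription factor, was at 70.1, 80.9 and 101 CPM in controls and 90.1, 112 and 129 CPM with fluoxetine (0.42 ± 0.086, adjusted p = 0.0664). For Neurod4 all 7 fluoxetine libraries lay above the control median although the groups overlapped.

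Further down the order by p, again none passed. On the higher side were Cdkn2b, a cell cycle inhibitor gene (0.42 ± 0.089, adjusted p = 0.0704), Dusp6, the gene of a phosphatase that restrains ERK signalling (0.38 ± 0.083, 0.104), Il1rap, a receptor subunit gene of interleukin 1 (0.28 ± 0.067, 0.144), and Rdh11, a retinol dehydrogenase gene (0.21 ± 0.049, 0.118). On the lower side were Mamld1 (-0.31 ± 0.067, adjusted p = 0.0857), Flt1, which encodes a VEGF receptor (-0.29 ± 0.067, 0.129), Raver2 (-0.23 ± 0.053, 0.112), Apba2, which encodes an adaptor of synaptic vesicle traffic (-0.22 ± 0.051, 0.104), Map7, a microtubule protein gene (-0.19 ± 0.043, 0.102), Gid4 (-0.17 ± 0.038, 0.106) and Fam102b (-0.16 ± 0.036, 0.111). These p-values are from edgeR with Benjamini-Hochberg adjustment.

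The 14 libraries separated without overlap for 53 of the 15601 genes (0.34%), 23 higher (0.147%) and 30 lower (0.192%) with fluoxetine. Among the 23 were 7 genes of the lysosome lists: Dpp7, Mfsd1, Atp6ap2, Atp6ap1, Lamp1, Ostm1 and Npc2. The 5 with the largest increase at 2 CPM or more were Uap1l1, 3110035E14Rik, Dpp7, Il1rap and Sat1. The protein-coding gene 3110035E14Rik had means of 14.5 CPM in controls and 18.7 with fluoxetine (0.36 ± 0.076, adjusted p = 0.0664, edgeR). Sat1, which encodes the acetyltransferase that starts polyamine breakdown, was at 46.8, 52.9 and 58.1 CPM in controls and 58.3, 60.4 and 75.5 CPM with fluoxetine (0.27 ± 0.068, adjusted p = 0.179, edgeR). The 5 with the largest decrease were Tnfsf9, Frzb, Stum, Flt1 and Tvp23a. Tnfsf9, a ligand gene of the tumour necrosis factor family, was at 4.46, 4.89 and 5.94 CPM in controls and 3, 3.78 and 4.19 CPM with fluoxetine (-0.46 ± 0.12, adjusted p = 0.173). None of 3110035E14Rik, Sat1, Il1rap, Tnfsf9, Stum or Tvp23a passed the adjusted test.

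Lysosomal genes were described as 3 lists with 100 members in all: hydrolases, membrane proteins and V-ATPase subunits. Of the 100, 3 were called, all higher. Estimates lay above 0 for 81, against 51.0% of all genes tested. Other lists also leaned to 1 side: 80% of 25 ribosomal protein genes and 92.9% of 14 epithelial genes lay above 0, and 21.4% of 28 neuron genes. At an unadjusted p under 0.05, 39 of the 100 were higher, against 4.36% of all genes, and 1 was lower (Atp6v1g2, a V-ATPase subunit form of neurons, -0.17 ± 0.080). The sizes were small throughout, with a median log2 fold change of 0.077 and all 100 intervals within 1.5-fold.

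Of 45 hydrolases and their cofactors, Dpp7 was the only one called, 33 had an estimate above 0, and the median was 0.061. At an unadjusted p under 0.05, 16 were higher and 0 lower. Those with the next smallest p were Neu1, a sialidase gene (54.1 ± 3.17 CPM in controls and 60.8 ± 3.14 with fluoxetine, mean ± SD; log2 fold change 0.17 ± 0.042), the tripeptidyl peptidase gene Tpp1 (0.12 ± 0.030) and Npc2, which encodes a carrier of cholesterol inside the lysosome (221 ± 6.10 and 245 ± 11 CPM; 0.15 ± 0.037). Their adjusted p were 0.163, 0.173 and 0.179 in edgeR. Cathepsin genes were among the 16, with Ctsl at 0.21 ± 0.061 and Ctsb at 0.17 ± 0.054, while Gaa, the acid glucosidase gene, was at -0.0019 ± 0.051.

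Of 34 membrane proteins, Mfsd1 was the only one called, 29 lay above 0, and the median was 0.075. Of these 34, 14 were higher and 0 lower at an unadjusted p under 0.05. Lamp1, which encodes the main glycoprotein of the lysosomal membrane, was at 394, 414 and 438 CPM in controls and 440, 459 and 487 CPM with fluoxetine, without overlap (0.16 ± 0.036, adjusted p = 0.118, edgeR).

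Of 21 V-ATPase genes, Atp6ap2 was the only one called, 19 lay above 0, and the median was 0.11. Of these 21, 9 were higher and 1 lower at an unadjusted p under 0.05. Catalytic sector genes such as Atp6v1a (0.12 ± 0.037) and Atp6v1c1 (0.11 ± 0.034) had an adjusted p of 0.305 in edgeR. The mean log2 CPM of the 21 genes, taken relative to the control mean, ran from -0.036 to 0.033 in controls and from 0.043 to 0.12 with fluoxetine, and did not overlap. For the 34 membrane genes it ran from -0.028 to 0.028 and from 0.031 to 0.094, and for the 45 hydrolases from -0.047 to 0.083 and from 0.041 to 0.11, where the groups overlapped.

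Of 29 tested genes of lysosome biogenesis and autophagy, none was called and 18 lay above 0. At an unadjusted p under 0.05, 7 were higher and 0 lower, against 4.36% higher over all genes. After Fnip1, the smallest p belonged to Flcn, which encodes folliculin (0.14 ± 0.037), Rragc, a Rag GTPase gene (0.10 ± 0.034), and M6pr, a sorting receptor gene of hydrolases (0.09 ± 0.036). The interval of the fold change lay within 1.5-fold for 27 of the 29 genes. Among the MiT/TFE factor genes, the estimates of Tfeb and Tfec were imprecise. Tfeb was at 0.29 ± 0.18 and the scarce Tfec at 0.44 ± 0.18, with 1.08 to 2.22 CPM in controls.

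**Figure D3:**
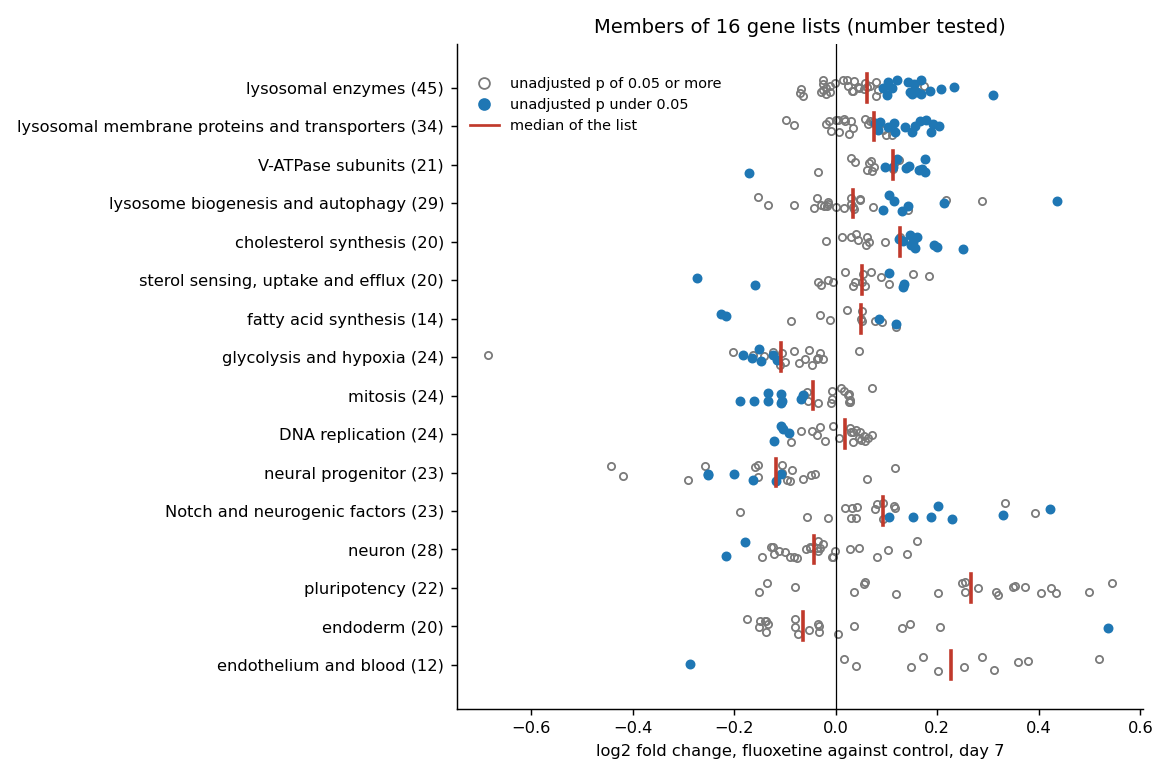
Log2 fold change of fluoxetine against control on day 7 for each tested member of 16 gene lists (number tested in brackets). Filled blue points have an unadjusted p under 0.05, open points do not, and red bars are the medians. Medians lie to the left of 0 for glycolysis, mitosis, neural progenitor, neuron and endoderm genes, and to the right for the other lists. The largest medians are those of pluripotency (0.27) and endothelium and blood (0.23), followed by cholesterol synthesis (0.13) and V-ATPase subunits (0.11).

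Over all genes with a promoter window, the estimate was set beside the number of CACGTG in the fullest window of the gene. Genes with none (9881) had a median log2 fold change of 0.00063, and 4.25% were higher at an unadjusted p under 0.05. With 1 match (1156 genes) the median was 0.0063 and the share 5.97%. With 2 or more (136 genes) the median was 0.032 and the share 16.2%, and 66.2% of these genes had an estimate above 0. Without the 10 of them that belong to the lysosome lists, the 126 others had a median of 0.024 and a share of 11.9%. Lower genes at the same threshold made up 5.21% of genes with none, 4.58% with 1 and 2.21% with 2 or more. These are descriptions of 1 contrast in which genes are not independent of each other. After Mfsd1 came 3 genes with 4 matches each: Lamp1 (0.16 ± 0.036), Cdk4 (0.06 ± 0.038) and Zmym6 (0.01 ± 0.040), the latter pair with an unadjusted p of 0.149 and 0.742.

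Genes of cholesterol synthesis leaned to higher values, and none was called. Of 20 genes 19 had an estimate above 0, and the median was 0.13. At an unadjusted p under 0.05, 10 were higher and 0 lower, against 4.36% higher over all genes. Cyp51, which encodes lanosterol demethylase, was at 199, 210 and 252 CPM in controls and 235, 267 and 274 CPM with fluoxetine (0.25 ± 0.056, adjusted p = 0.104, edgeR). All 7 fluoxetine libraries lay above the control median, and the groups overlapped. Sc5d (0.19 ± 0.052), Pmvk (0.16 ± 0.046) and Fdft1 (0.15 ± 0.044), enzymes of later and earlier steps, had adjusted p of 0.205 to 0.305.

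Among 20 genes of sterol sensing, uptake and efflux, Rnf145 was called lower and no other gene was called. The median was 0.052. The sterol sensor gene Insig1 (0.13 ± 0.060) was higher only at an unadjusted p. Abca1, which encodes the cholesterol exporter, was at 50.5 ± 5.15 CPM in controls and 45.2 ± 2.74 with fluoxetine (-0.16 ± 0.067, adjusted p = 0.475). Abcg1, another exporter gene, was at 0.15 ± 0.16. Rnf145 was thus the only called member, with an estimate opposite in sign to the list median.

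Of 14 genes of fatty acid synthesis none was called and the directions were split. Acaca and Fasn, which encode the committed enzyme and the synthase, were at -0.23 ± 0.058 (adjusted p = 0.179, edgeR) and -0.22 ± 0.074 (0.373). Fasn was at 800, 851 and 949 CPM in controls and 618, 754 and 854 CPM with fluoxetine. Acsl3, which activates fatty acids, was at 0.12 ± 0.036 (0.305).

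Glycolysis and hypoxia genes leaned the other way. None of 24 was called, 23 had an estimate below 0, the median was -0.11, and 6 were lower and 0 higher at an unadjusted p under 0.05, against 4.77% lower over all genes. Pgam1, a mutase gene, was at 83.5, 90.4 and 104 CPM in controls and 73.5, 83.3 and 87.5 CPM with fluoxetine (-0.16 ± 0.049, adjusted p = 0.305, edgeR). Gpi1 (-0.15 ± 0.053), Pfkl (-0.12 ± 0.052) and the hexokinase gene Hk1 (-0.12 ± 0.041) had the next smallest p. By library, the mean of the 24 genes ran from -0.19 to 0.14 in controls and from -0.28 to 0.051 with fluoxetine, on the log2 scale relative to the control mean, so the groups overlapped widely. Without control replicate 5 the median of the list was -0.070.

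Cell cycle genes were described by a mitosis list and a DNA replication list, and in both every gene with an unadjusted p under 0.05 was lower. Of 24 mitosis genes none was called and 16 had an estimate below 0. At an unadjusted p under 0.05, 9 were lower and 0 higher, against 4.77% lower over all genes. They included Aurkb, a kinase gene of chromosome segregation (95 ± 7.03 CPM in controls and 83.4 ± 5.23 with fluoxetine; -0.19 ± 0.050, adjusted p = 0.201, edgeR), Plk1 (-0.13 ± 0.037), the centromere gene Cenpa (-0.11 ± 0.029) and Ube2c (-0.13 ± 0.038). Plk1 was the only mitosis gene whose 7 and 7 libraries did not overlap. Top2a and Ccna2, other genes of the same phase, were at -0.0077 ± 0.055 and -0.0099 ± 0.026. Of 24 DNA replication genes 13 lay above 0. The median was 0.018, and its sign changed under 3 of the 23 alternatives. At an unadjusted p under 0.05, 4 were lower and 0 higher, against 4.77% lower over all genes. The 4 included Mcm2 (-0.09 ± 0.033) and Mcm6 (-0.10 ± 0.039).

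**Figure D4:**
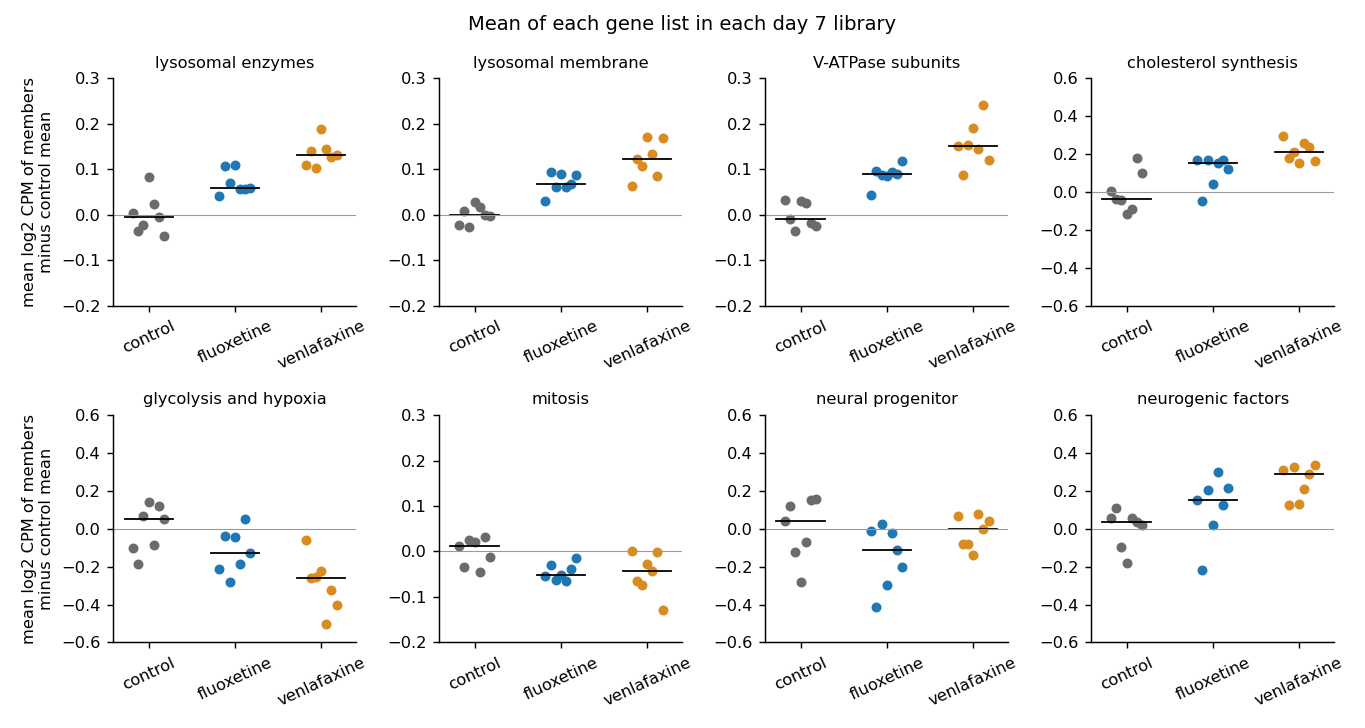
Mean log2 CPM of the members of 8 gene lists in each day 7 library, minus the mean of the 7 controls (grey control, blue fluoxetine, orange venlafaxine; black bars are medians; the vertical scale is wider for cholesterol synthesis, glycolysis, neural progenitor and neurogenic lists). Control and fluoxetine libraries do not overlap for the lysosomal membrane and V-ATPase lists and overlap for the other 6.

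Neural differentiation was described by lists of progenitor, neurogenic and neuron genes. In bulk RNA, fewer cells of a type and less RNA per cell cannot be told apart. None of 23 tested progenitor genes was called, 21 had an estimate below 0, and the median was -0.12. At an unadjusted p under 0.05, 6 were lower and 0 higher, against 4.77% lower over all genes. Those with the smallest p were the transcription factor gene Sox9 (41.6, 55.1 and 64 CPM in controls, 37.8, 46.3 and 55.8 with fluoxetine; -0.25 ± 0.093, adjusted p = 0.415, edgeR), the RNA-binding protein gene Msi1 (-0.16 ± 0.064), Id4 (-0.20 ± 0.082) and Nes (-0.11 ± 0.046). Sox1 and Pax6 were at -0.12 ± 0.056 and -0.10 ± 0.070.

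Of 23 tested neurogenic factors none was called, 20 had an estimate above 0, the median was 0.094, and 7 were higher and 0 lower at an unadjusted p under 0.05, against 4.36% of all genes. Neurod4 was joined by St18 (28.3, 31.5 and 37.5 CPM in controls, 29.7, 41.8 and 44.2 with fluoxetine; 0.33 ± 0.076, adjusted p = 0.118, edgeR), Hes6 (0.20 ± 0.065) and Insm1 (0.23 ± 0.076), all of which act in cells leaving the progenitor state. Of 28 neuron genes none was called and 22 had an estimate below 0. Their median was -0.043, and 2 were lower at an unadjusted p under 0.05. Tubb3 (0.03) and Map2 (-0.04) had estimates whose sign changed when single libraries were left out.

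Fluoxetine replicate 2 was the lowest library of its group for Nes (515 CPM, next lowest 608), St18 (29.7, next 39.1) and the means of both the progenitor list (-0.41) and the neurogenic list (-0.22), and the highest for summed endoderm markers (409 CPM, next 306). Without it the median of the progenitor list was -0.093 and that of the neurogenic list 0.14, which was 0.062 without fluoxetine replicate 5. St18 was called without this library, without control replicate 6, without the 3 libraries that an earlier analysis had set apart, and with DESeq2. Without fluoxetine replicate 2 the median of the neuron list was 0.016. The neuron median was also moved by over 1.5 times without control replicate 2 (-0.018) or 5 (-0.077) and without fluoxetine replicate 3 (-0.082) or 5 (-0.071).

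Other cell types showed no called gene. All 22 pluripotency genes were tested, 19 had an estimate above 0 with a median of 0.27, and none had an unadjusted p under 0.05. Nanog was at 4.07 to 9.97 CPM in controls and 6.89 to 15.8 with fluoxetine (0.50 ± 0.30, adjusted p = 0.618, edgeR). The sum of 5 stem cell markers was 52.3 ± 13.2 CPM in controls and 67 ± 18.3 with fluoxetine (mean ± SD, n = 7; exact two-sided permutation p = 0.111). Summed neural progenitor markers were 1509 ± 76.8 and 1388 ± 126 CPM (p = 0.0425, adjusted 0.181 over 17 library measures, exact permutation). Of 12 tested endothelial and blood genes 11 lay above 0 with a median of 0.23 (0.15 without fluoxetine replicate 2), and the exception, Flt1, was the one with an unadjusted p under 0.05. Afp, the endoderm gene of alpha-fetoprotein, was at 11 to 26 CPM in controls and 23.9 to 32.9 with fluoxetine (0.54 ± 0.16, adjusted p = 0.305), while the median of 20 endoderm genes was -0.063. That median ran from -0.13 (without fluoxetine replicate 2) to -0.021 (without fluoxetine replicate 8) when 1 library was left out, and also moved by over 1.5 times without control replicate 1, 2, 5 or 8. For these marker sums and lists, the part of cell composition in the results above was not tested.

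Of 26 genes of serotonin signalling, the system that the drug targets, 13 had enough counts to test. Slc6a4 was at 0.196, 0.554 and 0.992 CPM in controls and 0.295, 0.521 and 1.22 CPM with fluoxetine. The groups overlapped, and the log2 fold change was 0.18 ± 0.32 with a 95% interval of -0.47 to 0.83 (adjusted p = 0.877, edgeR), so no difference was detectable at this depth. Its sign changed when 1 library was left out. The noradrenaline transporter gene Slc6a2 was at 0.18 ± 0.17. Gata3, a factor of serotonergic neurons, had the smallest p of the list (0.29 ± 0.12, adjusted p = 0.478).

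Stress and housekeeping lists stayed near 0. The medians were 0.014 for 20 genes of the unfolded protein response, -0.0018 for 13 heat shock genes, 0.023 for 14 NRF2 targets, 0.018 for 25 subunits of oxidative phosphorylation and 0.019 for 25 ribosomal protein genes, with no gene called. Apart from oxidative phosphorylation, where the median stayed at 0.0087 (without fluoxetine replicate 8) to 0.046 (without fluoxetine replicate 1), the sign of these medians changed under some alternatives. Hox genes of hindbrain and spinal identity had a median of 0.016 over 22 genes, 1 of them lower at an unadjusted p (Hoxa2, -0.16 ± 0.053), and that sign changed as well.

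Mitochondrial ribosomal RNA took a larger share of counts with fluoxetine. The share of mt-Rnr1 and mt-Rnr2 was 0.0387% ± 0.00214 in controls and 0.046% ± 0.00256 with fluoxetine (mean ± SD, n = 7), with ranges of 0.0354% to 0.0411% and 0.0424% to 0.0490%. The groups did not overlap, and the exact permutation p of 0.000583 is the smallest that 7 against 7 libraries can give (adjusted 0.00991 over 17 measures). In the gene-wise test mt-Rnr2 was at 0.24 ± 0.054 (adjusted p = 0.104, edgeR). The share of mitochondrial protein genes was 1.36% ± 0.0712 and 1.47% ± 0.0866 (exact permutation p = 0.028, adjusted 0.158). These libraries were made from polyA RNA, in which ribosomal RNA is depleted.

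Whether the differences were present later was asked with the separate libraries of day 13, after exposure from day 3 to day 13. None of the 8 genes was called there, among 19 of 16397 genes that were (0.116%). The estimates were 0.03 ± 0.025 for Rnf145, 0.29 ± 0.16 for Uap1l1, 0.07 ± 0.069 for Dpp7, -0.03 ± 0.062 for Impact, 0.14 ± 0.060 for Mfsd1, -0.05 ± 0.056 for Atp6ap2, 0.04 ± 0.033 for Snn and -0.10 ± 0.057 for Klf8. In the test of the difference between days, 47 of 16964 genes were called (0.277%), and these included Rnf145, where the effect was higher on day 13 by 0.31 ± 0.035 (adjusted p = 1.34e-06, edgeR). The control level of Rnf145 was 217 ± 5.53 CPM on day 7 and 170 ± 4.81 on day 13, against 172 ± 2.61 with fluoxetine on day 13, on the scale common to the 49 libraries.

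Snn (0.22 ± 0.046, adjusted p = 0.0363) and Tnfsf9 (0.64 ± 0.15, 0.0438) were also called in the difference between days. Both lost this call with DESeq2 size factors (0.0508 and 0.0548) and without the count filter (0.116 each). The difference was -0.29 ± 0.077 for Impact (adjusted p = 0.0717, and 0.0218 with DESeq2) and -0.22 ± 0.064 for Atp6ap2 (0.107). Mfsd1 had similar estimates on both days, and the interval of its difference was -0.17 to 0.10. For Uap1l1 that interval was -0.44 to 0.24, too wide to tell the days apart.

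**Figure D5:**
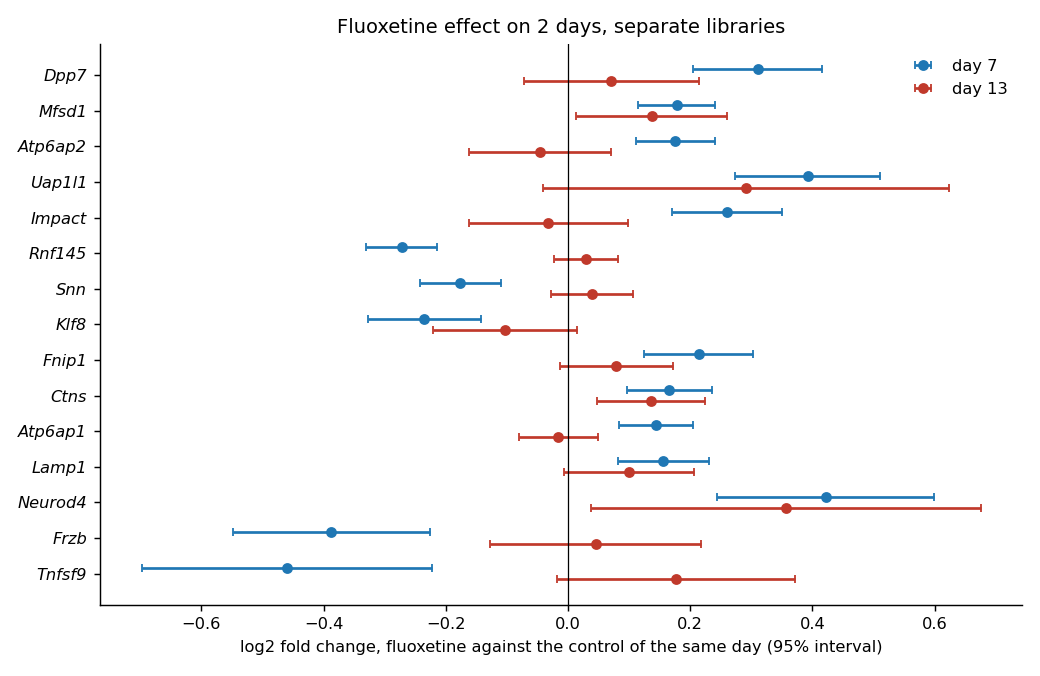
Log2 fold change of fluoxetine against the control of the same day, with 95% intervals, on day 7 (blue) and day 13 (red) for the 8 called genes and 7 others named in the text; the days are separate libraries, 7 per group. The intervals of the 2 days do not overlap for Rnf145, Snn, Impact, Atp6ap2, Atp6ap1, Frzb and Tnfsf9, and overlap for the others.

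On day 13 the lysosome lists had medians of different sign. Of the 45 hydrolases 39 had an estimate above 0, with a median of 0.076, and 14 were higher and 0 lower at an unadjusted p under 0.05, against 7.53% higher and 6.57% lower over all genes. The median of the 34 membrane genes was 0.027, with 6 higher and 2 lower. Of the 21 V-ATPase genes 4 lay above 0, the median was -0.046, and 1 was higher and 3 were lower. No member of these lists was called on day 13, and the difference between days was tested gene by gene only. Cholesterol synthesis genes had a median of -0.011 and glycolysis genes one of -0.0079 on day 13. All 24 mitosis genes had an estimate above 0 on that day, and none an unadjusted p under 0.05. Genes with 2 or more CACGTG had a median of 0.010 on day 13, and 8.96% were higher at an unadjusted p.

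Venlafaxine, another antidepressant, was given at 90 µM, so doses differ, and its comparison shares the 7 controls of day 7. Against these controls 599 genes were called (3.84%), 1.9% of the genes tested higher and 1.94% lower. At an unadjusted p under 0.05, 8.47% were higher and 8.79% lower. The 8 genes are given side by side: Rnf145 was at -0.27 with fluoxetine and -0.22 with venlafaxine, Uap1l1 at 0.39 and 0.64, Dpp7 at 0.31 and 0.44, Impact at 0.26 and 0.41, Mfsd1 at 0.18 and 0.28, Atp6ap2 at 0.18 and 0.29, Snn at -0.18 and -0.07, and Klf8 at -0.24 and -0.43. Of the 100 lysosomal genes 3 were called with fluoxetine and 38 with venlafaxine, all higher, with medians of 0.077 and 0.13. The medians of cholesterol synthesis were 0.13 and 0.22. Tested directly, 23 genes differed between the drugs (0.147%), and none of the 8 was among them. The interval of the difference for Rnf145 (fluoxetine minus venlafaxine) was -0.11 to 0.0065, and for Uap1l1 it was -0.37 to -0.13 (adjusted p = 0.0677, edgeR). With DESeq2 the difference passed for Uap1l1 (0.00828), Mfsd1 (0.039), Atp6ap2 (0.0245) and Klf8 (0.0457). Ctns was lower with fluoxetine than with venlafaxine by 0.21 (adjusted p = 0.0076), and so was Tpp1, at 137 ± 3.89 CPM with fluoxetine and 149 to 156 CPM with venlafaxine (adjusted p = 0.0194).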

How the data were processed

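The deposited table held raw counts per gene for 49 libraries (TruSeq Stranded mRNA, polyA RNA); the authors' tools, per the submitters' processing notes, were featureCounts 1.6.1, STAR 2.6.0b with build GRCm38.p6, FastQC 0.11.5 and bcl2fastq 2.19.0.316. The sources used here do not give the annotation release, the strand setting or the handling of multi-mapped reads, so overlapping genes and close paralogs may share reads. Of 52550 rows, 26 symbols turned into dates were restored. Libraries were grouped by their labels. The 21 libraries of day 7 were fitted together with edgeR 4.0.16 in R 4.3.3 (TMM, filterByExpr, robust quasi-likelihood F test, Benjamini-Hochberg adjustment over all genes tested, threshold 0.05), the day 13 groups likewise, and both days together for the difference. Errors of log2 fold changes are the estimate divided by the root of F; CPM used TMM factors. Library measures used exact permutation tests (scipy 1.17.1). Depth limits precision mainly below 10 CPM. Motifs were counted on both strands of RefSeq promoter windows.

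Alternatives were DESeq2 size factors, no filter, 1 CPM in 7 libraries, DESeq2 1.42.0, voom with limma 3.58.1, the 2 groups alone, all 49 libraries, a replicate block, 3 libraries left out that an earlier analysis of these data had set apart, and each library left out in turn. The 3 were control replicate 5, fluoxetine replicate 2 and venlafaxine replicate 5 of day 7. Control replicate 7 lay farther from its group than control replicate 5 (root mean square log2 distance 0.299 against 0.287). The scripts were tested on simulated data. Named genes are those called, the next 22 by p with a proper symbol and 1 CPM, in each of 30 lists up to 4 members of smallest p plus those that show what did not pass, the 5 highest and 5 lowest genes without overlap, and a marker panel; further list members (Atf4, Ddit3, Ctsl, Ctsb, Gaa, Ostm1, Cdk4, Zmym6, Top2a and Ccna2) and the markers Gata4, Cdh5 and Cdh1 were named after their values were seen. Members and lists were chosen with earlier results of these data known. Some members of the lists are not reported here by name.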

Additional observations from a re-analysis of the deposited data

Results flagged for a closer look

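In 210 groups of 7 libraries, 14 held a library set apart from the others, a gap that chance gives in about 1 of 20 groups. Fluoxetine replicate 2 was lowest for Snn (115.3 CPM), St18 (29.7 CPM) and Nes (514.7 CPM) and highest for Insig1 (240.9 CPM) and for the summed endoderm markers (408.9 CPM). Fluoxetine replicate 6 was lowest for Mfsd1 (105.8 CPM) and highest for Rdh11 (73.44 CPM). Fluoxetine replicate 4 was highest for Hspa1a (2.895 CPM).

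Among controls, replicate 7 was lowest for Rnf145 (211.3 CPM) and for summed oligodendrocyte markers (28.96 CPM), and highest for Flt1 (206.5 CPM). Replicate 8 was lowest for Dpp7 (20.35 CPM), replicate 5 highest for Neu1 (60.47 CPM), and replicate 1 highest for M6pr (136.2 CPM). The part of these libraries in the results was not tested beyond leaving each out in turn.

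The fluoxetine effect differed between days by the test of the difference itself for Rnf145 (0.3058 on the log2 scale, day 13 minus day 7, edgeR adjusted p = 1.34e-06), Snn (0.22, adjusted p = 0.0363) and Tnfsf9 (0.6403, adjusted p = 0.0438), with 7 libraries in each of the groups compared.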

How the results depend on the processing

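The 8 calls became 53 with DESeq2, 13 with voom and limma, 14 with the 2 groups alone and 18 with all 49 libraries. There were 5 without the 3 libraries that an earlier analysis had set apart. Leaving out 1 library at a time gave 2 to 15. There were 8 with DESeq2 size factors, 8 with the stricter filter and 6 without a filter. The cause of these shifts was not tested, except that fewer libraries entered some fits. The labels do not state whether replicate numbers pair the libraries. Over 6 shared numbers the correlation of deviations ran from -0.34 to 0.074, and none was over 0.1. No pairing was seen in these values, but a weak one could be missed. With the replicate block 6 genes were called, 4 of them among the 8, and the adjusted p of the difference between days became 0.0516 for Snn and 0.0612 for Tnfsf9, and that of Ctns between the drugs 0.0612. Rnf145 was called in every fit (log2 fold change -0.29 to -0.26), and Uap1l1 in all but the fit of all 49 libraries. Signs changed for Slc6a4 (-0.04112 to 0.3129 over the fits that left out 1 library), Tubb3 (-0.02067 to 0.08719), Map2 (-0.1128 to 0.04645) and Sapcd2 (-0.02148 to 0.0288, and -0.01529 without the 3 libraries). The medians of the lysosomal enzyme, membrane and V-ATPase lists stayed at 0.041 to 0.073, 0.066 to 0.087 and 0.091 to 0.12 over all 23 alternatives. Genes without overlap numbered 21 higher and 29 lower with DESeq2 size factors. Genes below 1 CPM, Slc6a4 among them, are limited by depth.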
